A study of Mus musculus with 8 samples.

Results

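The genes described here are 9 interferon-inducible genes of the mouse, taken by their symbols from the deposited count table of 28239 symbols: Ifi27 and Ifi27l2a, Ifi35, Ifi44, and 5 genes of the Ifi200 family (Ifi203, Ifi204, Ifi205, Mndal and Aim2). All 9 were in the table, and 8 of them had enough reads to be tested. Ifi204 did not. The libraries came from regulatory T cells (Tregs), the CD4+ T cells that restrain other immune cells. Naïve CD4+ T cells were taken by negative selection from the spleens of 4 wild-type (WT) and 4 Alox15-/- C57BL/6 mice and cultured for 2 days with IL-2, TGF-β and beads that engage CD3 and CD28, so both groups received the same cytokines and beads. Alox15 encodes an arachidonate lipoxygenase, and the labels give its genotype as Alox15-/- without naming the allele. The paper's methods name Charles River as the source of the WT mice and The Jackson Laboratory as that of the Alox15-deficient mice. Effects of genotype and of supplier or colony therefore cannot be told apart. The comparison asked which transcripts differed between Tregs of the 2 genotypes, with 4 libraries per group.

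Interferons act through receptors that activate STAT transcription factors, which then bind short DNA elements in the promoters of many genes. The proteins of the Ifi27 family are small and hydrophobic and sit in mitochondria or at the nuclear envelope. Ifi35 protein pairs with its relative Nmi, and Ifi44 is an antiviral protein of the cytoplasm. Most proteins of the Ifi200 family carry a PYRIN domain, which joins protein complexes, or a HIN domain, which binds DNA. Aim2, the best known of them, senses double-stranded DNA in the cytosol and assembles an inflammasome with the adaptor ASC and caspase-1.

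Ifi27 and Ifi27l2a lie side by side on chromosome 12 of GRCm38, and they are the 2 members that differed between the groups. Ifi27 is on the plus strand at chr12:103434211-103440239 and Ifi27l2a on the minus strand at chr12:103442167-103443680. Their 3′ ends face each other across 1927 bases. In RefSeq's annotation of GRCm38.p6 the Ifi27l2a locus is drawn longer, at chr12:103433873-103443680, and spans that of Ifi27 (chr12:103434189-103440245). The annotation and strand setting behind the counts are not given, so the effect of this overlap on them was not tested. MACE-seq counts tags from the 3′ ends of transcripts, and those ends are compared below. The matching stretches of the coding sequences show how alike the 2 genes are, not whether they share tags. The stretch of Ifi27 runs from base 342 to base 641 of 780 coding bases (stop codon not counted), and that of Ifi27l2a is its whole coding sequence of 270 bases. Capitals mark the longest run that both genes hold.
Ifi27: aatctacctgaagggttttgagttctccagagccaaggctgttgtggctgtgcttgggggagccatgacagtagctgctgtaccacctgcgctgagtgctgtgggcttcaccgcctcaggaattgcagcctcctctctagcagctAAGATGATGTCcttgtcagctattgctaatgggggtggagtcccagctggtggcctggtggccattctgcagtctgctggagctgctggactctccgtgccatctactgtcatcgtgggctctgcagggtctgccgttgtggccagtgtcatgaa
Ifi27l2a: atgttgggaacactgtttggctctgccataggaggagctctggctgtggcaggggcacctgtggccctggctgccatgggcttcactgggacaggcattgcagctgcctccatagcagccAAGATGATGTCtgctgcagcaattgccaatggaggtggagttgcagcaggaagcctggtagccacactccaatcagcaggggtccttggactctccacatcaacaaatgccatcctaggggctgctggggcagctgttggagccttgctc
Over 264 aligned bases the sequences were 68.9% identical, and the longest shared run had 11 bases. No other gene of the annotation matched the last 500 bases of the Ifi27 transcript at 90% identity or more over at least 50 bases. The Ifi27l2a transcript had 1 such match, to Ifi27l2b, with 90.7% identity over 236 bases. Ifi27l2b was not among the symbols of the count table, and reads of it could have been counted as Ifi27l2a.

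The Ifi200 genes form a cluster on chromosome 1. In the table, 13 of them lay within chr1:173350879-174031810, a span of 680.9 kb with Aim2 at one end and Ifi205 at the other. Their promoters are shown because several hold an interferon-stimulated response element. Its core was searched for on both strands as GAAA, any 2 bases, GAAA, within the 250 bases before each transcription start in RefSeq's promoters of GRCm38.p6. The next lines give, for each member with a match, 1 promoter that holds it. Those of Ifi214 and Ifi209 follow, near-identical relatives of which Ifi209 differed between the groups. Capitals mark the match, and Ifi209 has none.
Mndal, chr1:173880188-173880437, minus strand: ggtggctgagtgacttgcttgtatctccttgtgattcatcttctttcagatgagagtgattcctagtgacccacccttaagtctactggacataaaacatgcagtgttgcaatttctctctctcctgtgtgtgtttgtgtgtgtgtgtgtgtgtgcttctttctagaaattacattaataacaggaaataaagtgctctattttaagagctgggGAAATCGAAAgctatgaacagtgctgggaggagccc
Ifi203, chr1:173942493-173942742, minus strand: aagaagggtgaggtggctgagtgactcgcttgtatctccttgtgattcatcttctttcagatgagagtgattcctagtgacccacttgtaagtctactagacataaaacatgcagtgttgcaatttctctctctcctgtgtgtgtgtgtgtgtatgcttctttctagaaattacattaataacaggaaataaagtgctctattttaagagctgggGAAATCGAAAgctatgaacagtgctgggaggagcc
Ifi205, chr1:174031756-174032005, minus strand: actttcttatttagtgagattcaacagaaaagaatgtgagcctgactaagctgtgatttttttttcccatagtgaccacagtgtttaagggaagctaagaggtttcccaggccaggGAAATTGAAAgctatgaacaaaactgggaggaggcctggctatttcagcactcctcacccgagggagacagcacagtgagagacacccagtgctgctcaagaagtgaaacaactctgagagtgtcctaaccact
Ifi214, chr1:173535958-173536207, minus strand: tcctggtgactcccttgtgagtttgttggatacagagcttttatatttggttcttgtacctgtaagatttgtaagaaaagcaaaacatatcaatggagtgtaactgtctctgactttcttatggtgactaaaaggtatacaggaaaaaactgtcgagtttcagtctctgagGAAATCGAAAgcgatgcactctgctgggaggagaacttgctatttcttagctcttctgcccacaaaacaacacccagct
Ifi209, chr1:173630609-173630858, plus strand: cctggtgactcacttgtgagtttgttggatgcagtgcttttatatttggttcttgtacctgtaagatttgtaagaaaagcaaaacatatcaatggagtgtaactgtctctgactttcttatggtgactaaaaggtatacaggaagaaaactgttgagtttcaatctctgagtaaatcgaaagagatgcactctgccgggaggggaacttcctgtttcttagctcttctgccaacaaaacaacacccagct
In the promoters shown, the match began 36 bases before the start in Mndal, 35 in Ifi203, 134 in Ifi205 and 79 in Ifi214. In Ifi209 the window at the same distance of 79 bases differed from the element of Ifi214 by 1 substitution, G1T, counted from 1 at the first base of the element. Of the 9 members, 6 had promoters in the table, 8 promoters in all, and 4 of those promoters held the element. They belonged to Mndal, which has 2, Ifi203 and Ifi205. The other match of Mndal, in a promoter not shown (chr1:173879959-173880208), began 54 bases before the start. Another promoter of Ifi203 (chr1:173942673-173942922) did not hold the element. Of all 32851 promoters of the same length, 978 (2.98%) held it. Among other interferon-induced genes, 29 of 77 promoters (37.7%) held it, and of the promoters of inflammasome and DNA-sensing genes 0 of 22 did. The windows of Aim2, Ifi35 and Ifi44 did not contain these letters. A second element, the gamma-activated site, was in 0 of the members' 8 promoters and in 7.02% of all promoters. Ifi27, Ifi27l2a and Ifi204 had no entry in the promoter table. A match describes letters and is not a measured binding site.

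The depth was between 3723151 and 9538962 counts per library. Values are counts scaled to 1000000 per library (CPM) after TMM correction of the totals, and a gene was tested where 4 or more libraries reached 2 CPM. Of 12700 such genes, 133 were higher (1.05%) and 25 lower (0.197%) in libraries labelled Alox15-/- by edgeR's quasi-likelihood test, at a Benjamini-Hochberg adjusted p under 0.05. Alox15, the targeted gene, went against the labels. Its counts were 292, 255, 337 and 454 in the libraries labelled Alox15-/- and 12, 16, 77 and 43 in those labelled WT, a log2 fold change of 3.65 (SE 0.299, adjusted p = 1.08e-05, edgeR). A 3′ tag outside the deleted part does not check a genotype, and the sources used here do not place the deletion. The groups are therefore named by their labels throughout, and each direction below rests on those labels.

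The libraries also differed in markers of other cells. Of the markers tested, 5 of 7 myeloid, 6 of 7 mast cell and basophil, 2 of 2 eosinophil, 5 of 6 erythroid and 4 of 5 NK and gamma-delta T cell genes were higher in libraries labelled Alox15-/- (adjusted p under 0.05). The 4 of the last list were gamma-delta receptor genes (Trdc, Tcrg-C1, Tcrg-C2 and Tcrg-C4). Its NK markers Ncr1, Klrb1c, Klra8 and Klre1 had too few reads to be tested, and Eomes did not pass (adjusted p = 0.592, edgeR). The list keeps its full name below, but no NK marker was called. The summed myeloid markers (12 genes) were between 49.8 and 371.5 CPM in those libraries and between 12.5 and 22.5 CPM in WT libraries. Of the T cell markers 0 of 10 and of the Treg markers 0 of 6 passed the test by edgeR, with 2 and 0 at an unadjusted p under 0.05. B cell markers had 0 of 3 higher and 1 lower (Ms4a1), and of the CD8 T cell and dendritic cell markers 0 of 2 and 0 of 1 passed, with 2 and 0 at an unadjusted p under 0.05. Siglecf of eosinophils and Mcpt4 of mast cells had at most 3 reads in any library. Foxp3, the transcription factor that defines Tregs, was between 71.4 and 112.9 CPM in libraries labelled Alox15-/- and between 92.9 and 194.4 CPM in WT libraries (log2 fold change -0.42, adjusted p = 0.655, edgeR). In RNA of a whole culture, fewer cells of a type and less RNA per cell cannot be told apart.

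Ifi27 rose in the libraries labelled Alox15-/-. It was at 32.9, 51.3, 39.7 and 37.8 CPM in those libraries (replicates 1 to 4) and at 25.1, 22.1, 20.7 and 21.3 CPM in the libraries labelled WT. The groups did not overlap, and the lowest library labelled Alox15-/- was replicate 1. The means were 40.4 ± 7.79 and 22.3 ± 1.97 CPM (SD, n = 4 each). The fold was 1.81 (95% interval 1.46 to 2.24), or 0.85 on the log2 scale (SE 0.145, edgeR adjusted p = 0.00496). The counts behind it were between 102 and 264 reads per library.

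Ifi27l2a rose as well. Its levels were 180.9, 247.3, 230.6 and 201.4 CPM in libraries labelled Alox15-/- and 154.6, 161.7, 145.9 and 122.3 CPM in those labelled WT. Again every library of the first group lay above every library of the second, with replicate 2 the highest of its group for both genes. The means were 215.1 ± 29.6 and 146.1 ± 17.1 CPM (SD, n = 4 each), a fold of 1.47 (95% interval 1.23 to 1.75). On the log2 scale the difference was 0.56 (SE 0.119, edgeR adjusted p = 0.0283). It rested on between 586 and 1454 reads per library.

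**Figure D1:**
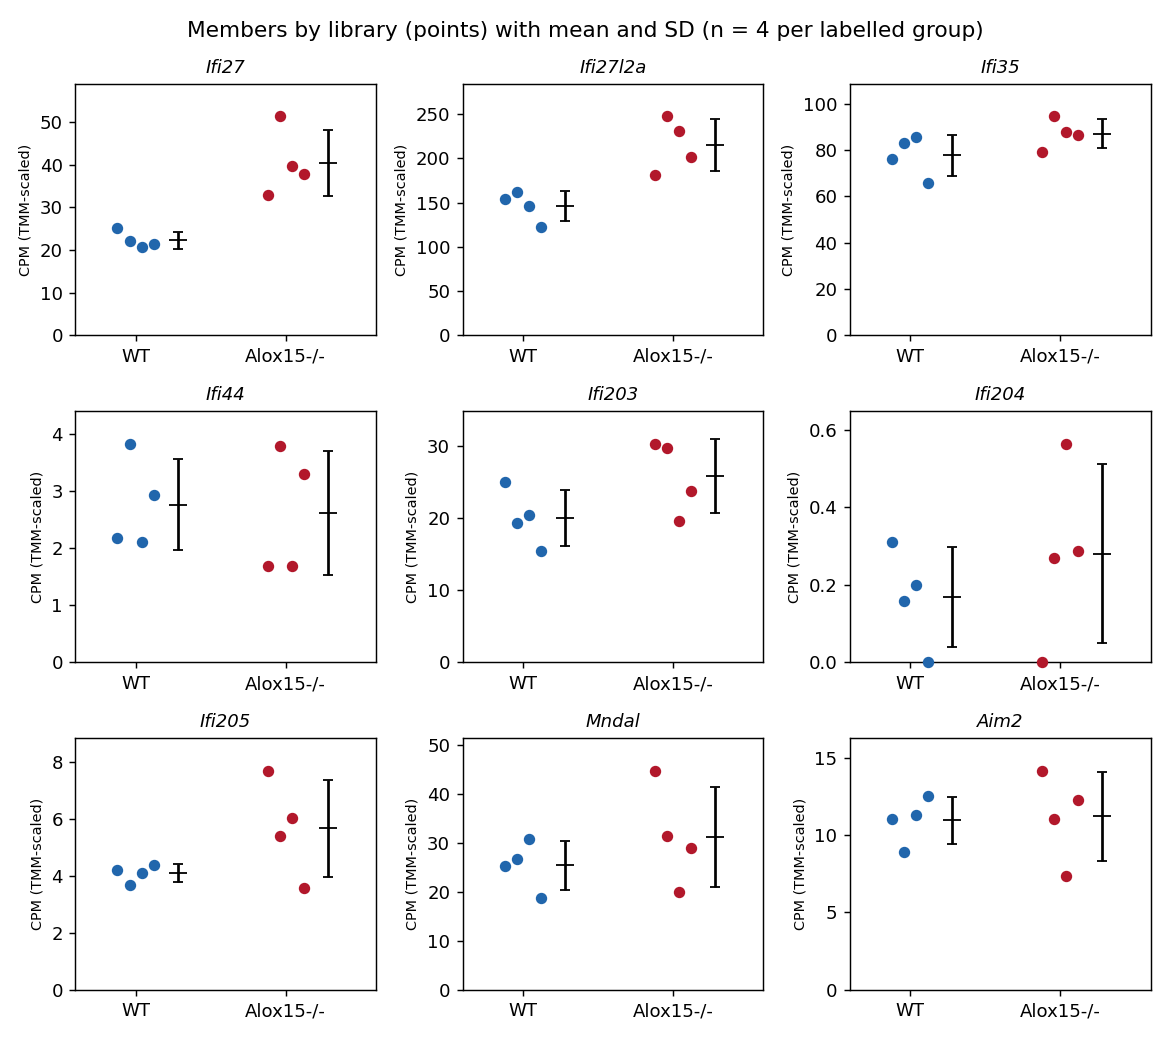
CPM after TMM scaling of the 9 members (vertical axes, from 0) in the 4 libraries labelled WT (blue) and the 4 labelled Alox15-/- (red), with replicates 1 to 4 from left to right, and mean and SD as black bars. The red points lie above all blue points for Ifi27 and Ifi27l2a, and the groups overlap for the other 7 genes.

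The calls of the 2 genes did not depend equally on single libraries. With each of the 8 libraries left out in turn, the log2 fold change of Ifi27 was between 0.73 and 0.94 and it passed the test in 8 of 8 fits (adjusted p between 0.00466 and 0.0239, edgeR). That of Ifi27l2a was between 0.48 and 0.63 and it passed in 1 of 8 fits, the one without Alox15-/- replicate 1 (adjusted p = 0.022). Its adjusted p was 0.142 without Alox15-/- replicate 2, 0.135 without Alox15-/- replicate 3 and 0.0521 without Alox15-/- replicate 4 (edgeR). Without WT replicates 1, 2, 3 and 4 it was 0.0782, 0.0521, 0.0504 and 0.057 in turn (edgeR).

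**Figure D2:**
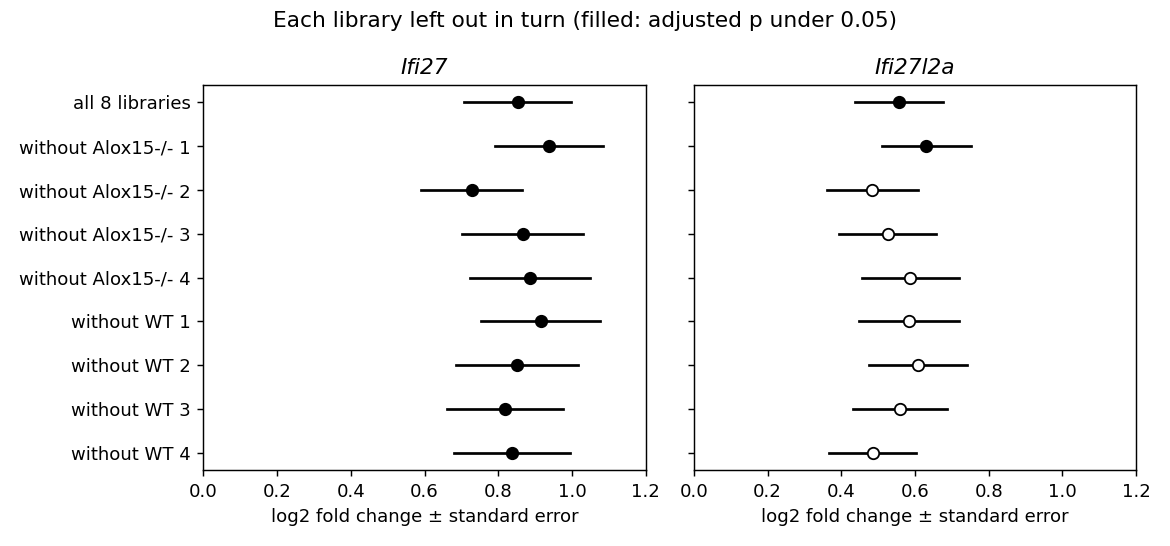
Log2 fold change (horizontal axis, labelled Alox15-/- over WT) of Ifi27 and Ifi27l2a with its standard error (bars) in all 8 libraries and with each library left out, filled where the adjusted p was under 0.05. Ifi27 stays filled in all 8 fits, between 0.73 and 0.94, and Ifi27l2a is filled with all 8 libraries and, of the fits with 1 left out, in that without Alox15-/- replicate 1.

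Both genes and the markers of other cells were higher in the libraries labelled Alox15-/-, and within the groups their orders agreed in part. Alox15-/- replicate 2, with the highest sum of myeloid markers (371.5 CPM), also had the highest Ifi27 and Ifi27l2a, and replicate 3 had the second highest of all 3 (222.9 CPM for the myeloid markers). Replicate 4 had the lowest sum of its group for the myeloid (49.8 CPM), mast cell and basophil (134.4 CPM) and NK and gamma-delta T cell markers (83.6 CPM). Replicate 1 had the second highest mast cell and basophil (205.2 CPM) and NK and gamma-delta T cell sums (137.7 CPM) but the lowest Ifi27 and Ifi27l2a of its group. Erythroid markers were highest in replicate 3 (3490 CPM). WT replicate 4 had the highest myeloid (22.5 CPM) and mast cell and basophil sums (81.8 CPM) of the WT libraries and the lowest Ifi27l2a of all 8 libraries. Alox15-/- replicate 4 had 37.8 CPM of Ifi27 and 201.4 CPM of Ifi27l2a, above every library labelled WT. Its myeloid, mast cell and basophil, and NK and gamma-delta T cell sums were also above every library labelled WT. The WT sums reached at most 22.5, 81.8 and 49.3 CPM in turn. Without replicates 2 and 3, a choice made after the data were seen, the log2 fold change was 0.67 for Ifi27 (adjusted p = 0.154) and 0.39 for Ifi27l2a (adjusted p = 0.598, edgeR), so neither passed with 2 libraries against 4. The part of other cells in these differences was not tested.

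**Figure D3:**
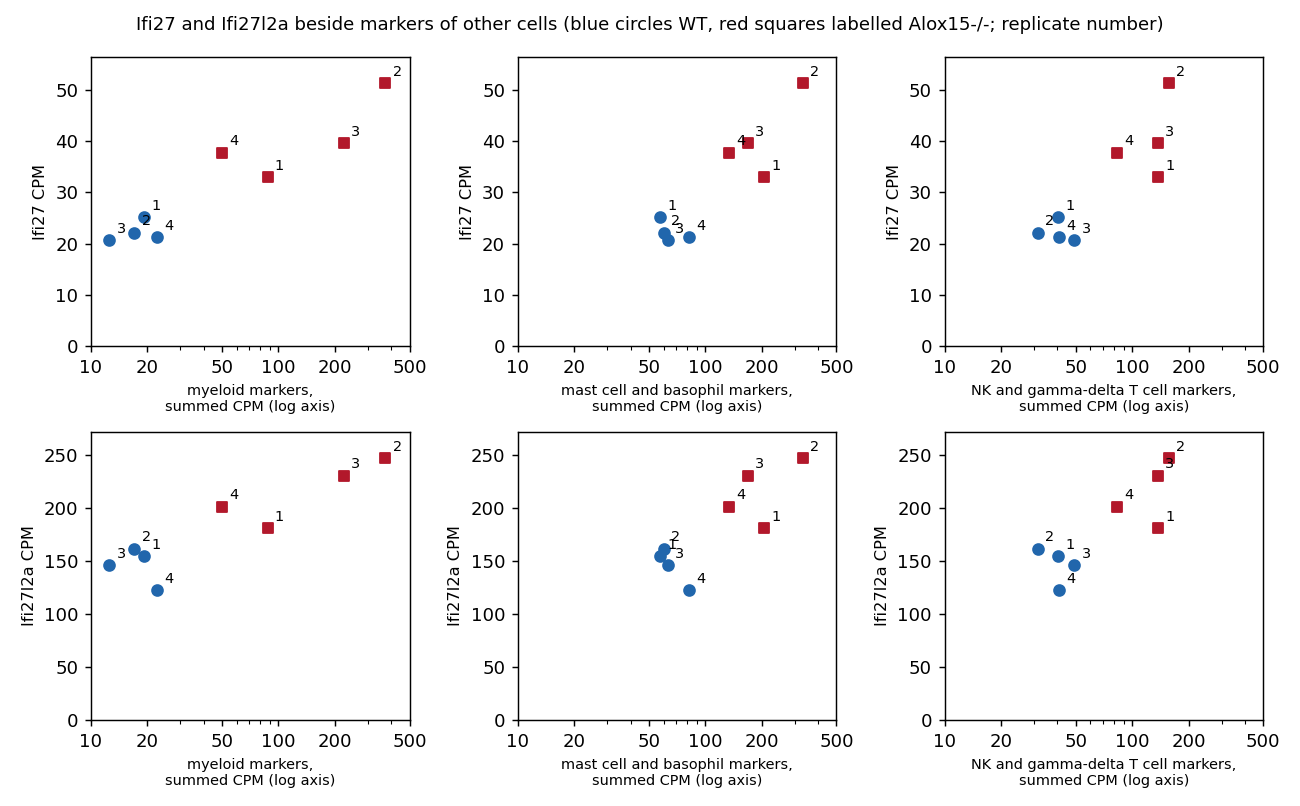
CPM of Ifi27 (top row) and Ifi27l2a (bottom row) against the summed CPM of myeloid, mast cell and basophil, and NK and gamma-delta T cell markers (log axes) in each library, with its replicate number. The libraries labelled Alox15-/- (red squares) lie above and to the right of those labelled WT (blue circles), and among them replicate 2 is highest on every axis.

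The genes most like Ifi27 in their pattern over the 8 libraries were Ctla2a, Pla2g16 and Gm8762. Their log2 CPM, centred on its mean, differed from that of Ifi27 by a root mean square of 0.129, 0.144 and 0.166, against a median of 0.510 over the tested genes. Ctla2a (log2 fold change 0.88, adjusted p = 0.00109, edgeR) and Pla2g16 (0.70, adjusted p = 0.0177, edgeR) were called, and Gm8762 (0.79, adjusted p = 0.525, edgeR) was not. The measure includes the difference between the groups, so similar fold changes follow largely from how these genes were chosen. For Ifi27l2a the nearest were Gmfg-ps (0.0979), CT030030.1 (0.102) and Thap3 (0.105), none of them called, against a median of 0.391. Ifi27 and Ifi27l2a differed from each other by 0.188, which placed Ifi27l2a at rank 6 from Ifi27 and Ifi27 at rank 78 from Ifi27l2a.

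Ifi35 and Ifi44 did not pass the test. Ifi35 is on the plus strand at chr11:101448407-101458698, where Gm11626 overlaps it on the opposite strand. It was at 79.3, 94.5, 87.9 and 86.6 CPM in libraries labelled Alox15-/- and at 76.3, 83.0, 85.8 and 65.6 CPM in libraries labelled WT, so that the groups overlapped. Its log2 fold change was 0.16 (SE 0.110, edgeR adjusted p = 0.782), with a 95% interval of -0.07 to 0.39. Nmi, its partner protein, had means of 25.7 ± 2.54 and 19.9 ± 4.51 CPM (SD, n = 4 each) and a log2 fold change of 0.36 (SE 0.168, edgeR adjusted p = 0.636). Ifi44, on the minus strand at chr3:151730922-151749960, had few reads. It was at 7, 14, 9 and 23 reads in libraries labelled Alox15-/- and at 14, 24, 21 and 14 reads in those labelled WT, or 1.68, 3.78, 1.69 and 3.29 CPM against 2.18, 3.82, 2.11 and 2.92 CPM. The groups covered nearly the same range. Its log2 fold change of -0.05 had a 95% interval of -0.79 to 0.68 (edgeR adjusted p = 0.988). These few reads do not exclude a difference within that interval.

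Of the 5 Ifi200 members, 4 were tested and 0 passed, against 1.24% of all genes tested. By edgeR 0 of the 4 had an unadjusted p under 0.05, against 7.84% of all genes tested, and limma-voom and DESeq2 also called 0 of them. In 4 genes, 0 calls cannot be told apart from these shares. Ifi203 (minus strand, chr1:173920407-173942672) was at 30.3, 29.7, 19.6 and 23.8 CPM in libraries labelled Alox15-/- and at 25.0, 19.3, 20.4 and 15.4 CPM in those labelled WT. Replicates 1 and 2 lay above all WT libraries and replicates 3 and 4 within their range. Its log2 fold change was 0.35 (SE 0.176, edgeR adjusted p = 0.682).

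Mndal (minus strand, chr1:173849126-173942491) overlaps Ifi203 and Ifi211 on the same strand. It was at 44.7, 31.3, 19.9 and 28.9 CPM in libraries labelled Alox15-/- and at 25.3, 26.8, 30.8 and 18.8 CPM in libraries labelled WT. Replicates 3 and 4 fell inside the WT range. Its log2 fold change of 0.27 (SE 0.208, edgeR adjusted p = 0.819) was 0.06 without Alox15-/- replicate 1, the library with the highest value. Ifi205 (minus strand, chr1:174011998-174031810) was at 7.69, 5.40, 6.02 and 3.58 CPM in libraries labelled Alox15-/- and at 4.21, 3.66, 4.11 and 4.38 CPM in those labelled WT. Replicate 4 was the lowest of all 8 libraries and the other 3 were above every WT library. Its log2 fold change was 0.44 (SE 0.262, edgeR adjusted p = 0.743), and it was 0.27 without Alox15-/- replicate 1 and 0.64 without Alox15-/- replicate 4.

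Ifi204, a DNA-binding member of the family on the minus strand at chr1:173747293-173766943, was close to the limit of detection. It had 0, 1, 3 and 2 reads in libraries labelled Alox15-/- and 2, 1, 2 and 0 reads in those labelled WT. A count of 0 allows up to 0.721 CPM in Alox15-/- replicate 1 and up to 0.626 CPM in WT replicate 4, for counting error only. No fold is given.

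Aim2 was at nearly the same level in both groups. It lies on the plus strand at chr1:173350879-173466040, overlapping Cadm3 on the opposite strand, and 35 other genes matched short stretches of its last 500 bases, of at most 67 bases each. Its values were 14.2, 11.1, 7.34 and 12.3 CPM in libraries labelled Alox15-/- and 11.1, 8.92, 11.3 and 12.5 CPM in those labelled WT. The means of 11.2 ± 2.89 and 11.0 ± 1.50 CPM (SD, n = 4 each) differed by less than the spread between libraries. Its log2 fold change of 0.03 had a 95% interval of -0.41 to 0.47 (edgeR adjusted p = 0.988).

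Together, 2 of the 8 tested members were higher and 0 lower at an adjusted p under 0.05, against a background of 1.05% and 0.197% of all genes tested. In 2 of 8 every library labelled Alox15-/- was above every library labelled WT, against 2.75% of all genes. At an unadjusted p under 0.05 the number higher was also 2 of 8, against 4.46% of all genes. Of the 8 log2 fold changes 7 were above 0, against 48.2% of all genes tested, with a median of 0.31 against -0.01 over all genes. Of these, Ifi205 and Mndal may share reads, and Aim2 was only just above 0 (0.03).

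The relatives of the members were read from a list of 19 symbols, of which 9 were in the table and 7 were tested. Their log2 fold change was above 0 in 7 of 7, against 48.2% of all genes tested, with a median of 0.59. Near copies among them (Ifi209 with Ifi214, Ifi208 with Ifi213) may share reads, so the 7 are not separate observations. Of the 7, 1 passed the test as higher, against 1.05% of all genes. This was Ifi209, an Ifi200 gene on the plus strand at chr1:173630917-173647928. It was at 11.8, 13.2, 8.84 and 11.9 CPM in libraries labelled Alox15-/- and at 6.86, 3.19, 4.92 and 6.05 CPM in libraries labelled WT. The groups did not overlap, and the log2 fold change was 1.12 (SE 0.238, edgeR adjusted p = 0.0265). It passed in 3 of the 8 fits with a library left out. The adjusted p was 0.0946, 0.109 and 0.0904 without Alox15-/- replicates 1, 2 and 4, and 0.0867 and 0.0748 without WT replicates 2 and 3 (edgeR). At an unadjusted p under 0.05, 4 of the 7 were higher, against 4.46% of all genes. Besides Ifi209 these were Ifi213 (log2 fold change 0.97, adjusted p = 0.504, edgeR), Ifi206 (0.88, adjusted p = 0.564, edgeR) and Nmi.

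**Figure D4:**
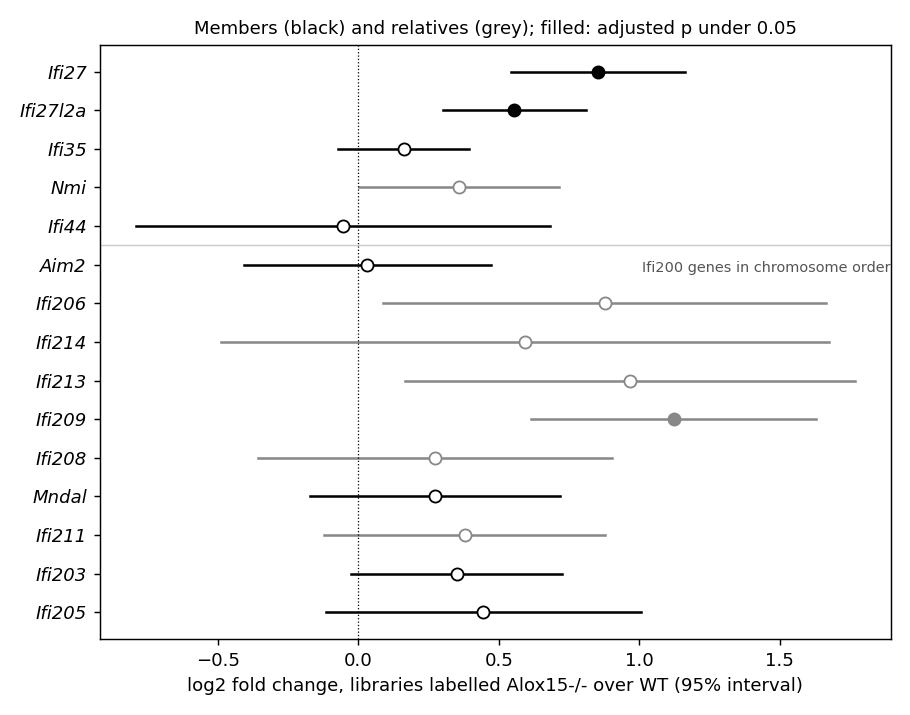
Log2 fold change (horizontal axis, labelled Alox15-/- over WT) with its 95% interval for the 8 tested members (black) and the 7 tested relatives (grey), the Ifi200 genes in their order along chromosome 1, filled where the adjusted p was under 0.05. Ifi27 (0.85), Ifi27l2a (0.56) and Ifi209 (1.12) are filled, and Aim2 (0.03) and Ifi44 (-0.05) lie next to 0.

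Single Ifi200 genes cannot be fully told apart in 3′ tags. The last 500 bases of Ifi209 and Ifi214 were 98.8% identical over 500 bases. Those of Ifi205 and Mndal matched at 94.3% over 506 aligned positions, with Ifi204 and Ifi211 as further matches. Ifi208 and Ifi213 matched at 95.6%, and Ifi206 matched Gm18752 at 93.7% over 505 aligned positions. The last 500 bases of Ifi203 had no such match, while those of the pseudogene Ifi203-ps matched Ifi203 at 90.2%. The sum of Ifi209 and Ifi214 was 15.6, 16.5, 9.03 and 15.0 CPM in libraries labelled Alox15-/- and 9.05, 4.78, 6.02 and 8.14 CPM in those labelled WT, so that Alox15-/- replicate 3 lay just under WT replicate 1. The sum of Ifi204, Ifi205, Ifi211 and Mndal had means of 44.0 ± 11.5 and 34.9 ± 5.27 CPM (SD, n = 4 each) and its groups overlapped. That of Ifi208 and Ifi213 had means of 7.85 ± 2.01 and 5.60 ± 1.73 CPM (SD, n = 4 each). Its log2 ratio was 0.49, with no test, and its groups overlapped as well.

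The whole cluster was also summed. The 13 Ifi200 genes together had 143.9, 116.9, 83.0 and 102.3 CPM in libraries labelled Alox15-/- and 88.3, 80.0, 85.2 and 81.6 CPM in those labelled WT. Alox15-/- replicate 3 lay within the WT range and the other 3 above it. The means were 111.5 ± 25.7 and 83.8 ± 3.71 CPM (SD, n = 4 each), a log2 ratio of 0.41 with no test, which was 0.27 without Alox15-/- replicate 1. Of the 10 tested Ifi200 genes, 10 had a log2 fold change above 0 (median 0.41), against 48.2% of all genes tested. Near copies among them may share reads, so the 10 are not separate observations, and Aim2 was only just above 0 (0.03). Of the 10, 1 was called, as higher, against 1.05% of all genes. Within 1 Mb on either side, 5 other genes were tested: Pigm, Tagln2, Dusp23, Gm2710 and Fcer1a. Of these, 1 was called, Fcer1a (log2 fold change 3.67, adjusted p = 1.65e-04, edgeR), which encodes a chain of the IgE receptor and is on the mast cell and basophil list.

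Other interferon-induced genes, from a list of 77 symbols with 64 tested, were higher in libraries labelled Alox15-/- in 17 cases and lower in 0. Of all genes tested, 1.05% were higher and 0.197% lower. The median log2 fold change on the list was 0.44, with 59 of 64 above 0, against 48.2% of all genes tested. In 22 of the 64 every library labelled Alox15-/- was above every library labelled WT, against 2.75% of all genes. The largest differences among the called genes were those of Ifitm1 (3.47, adjusted p = 3.97e-05), Xaf1 (2.23, adjusted p = 1.05e-04) and Ifitm3 (2.10, adjusted p = 0.0361, edgeR). The smallest were those of Tgtp2 (0.58, adjusted p = 0.0122), Slfn1 (0.70, adjusted p = 0.00129) and Gbp2 (0.88, adjusted p = 0.0171, edgeR). Ifitm1 and Ifitm3 are membrane proteins that restrict virus entry, and Gbp2 and Tgtp2 are GTPases of the interferon response. Ifitm3 passed in 4 of the 8 fits with a library left out, and its value was 1.51 without Alox15-/- replicate 2 (adjusted p = 0.139, edgeR). It also missed the threshold without Alox15-/- replicate 3 and without WT replicates 1 or 2, as well as by limma-voom (adjusted p = 0.192), in the robust fit (adjusted p = 0.487, edgeR) and with library totals without hemoglobin genes (adjusted p = 0.0546, edgeR). Gbp2 missed it in the robust fit (adjusted p = 0.0736, edgeR), without Alox15-/- replicates 1, 2 or 3 and without WT replicate 1, and Tgtp2 without Alox15-/- replicates 1 or 2. Ifi27 (0.85) lay between Slfn1 and Gbp2 in size, and Ifi27l2a (0.56) just below Tgtp2; these differences were not tested. Without Alox15-/- replicates 1, 2 or 3 the count of 17 was 11, 8 and 10, and without WT replicates 1 or 2 it was 8 and 10. Without Alox15-/- replicates 2 and 3 together it was 5.

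The interferon signalling list held interferons, their receptors and the proteins that signal from these. Of its genes, 18 were tested, 1 was higher and 0 lower (adjusted p under 0.05), with a median of 0.12. Of all genes tested, 1.05% were higher and 0.197% lower. The gene was Irf7, a transcription factor that amplifies the interferon response, at 12.3, 13.0, 9.78 and 8.87 CPM in libraries labelled Alox15-/- and at 3.28, 2.87, 6.12 and 5.64 CPM in those labelled WT (log2 fold change 1.26, SE 0.260, edgeR adjusted p = 0.0226). The groups did not overlap. Irf7 passed in 3 of the 8 fits with a library left out (adjusted p between 0.0119 and 0.103, edgeR), losing the call without Alox15-/- replicates 1, 2 or 3 and without WT replicates 1 or 2. With the replicate number as a block its adjusted p was 0.0519.

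Of the inflammasome and DNA-sensing genes, which include the partners of Aim2, 15 were tested and 0 passed by edgeR, with a median of 0.08. Of all genes tested, 1.24% passed. At an unadjusted p under 0.05, 2 were higher, against 4.46% of all genes. These were Casp4 (log2 fold change 0.82, adjusted p = 0.102) and Casp1, the caspase that Aim2 activates (1.01, adjusted p = 0.317, edgeR). Casp1 was at 8.17, 5.40, 8.65 and 8.44 CPM in libraries labelled Alox15-/- and at 2.65, 6.21, 1.91 and 5.22 CPM in those labelled WT. The groups overlapped through Alox15-/- replicate 2 and WT replicate 2.

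**Figure D5:**
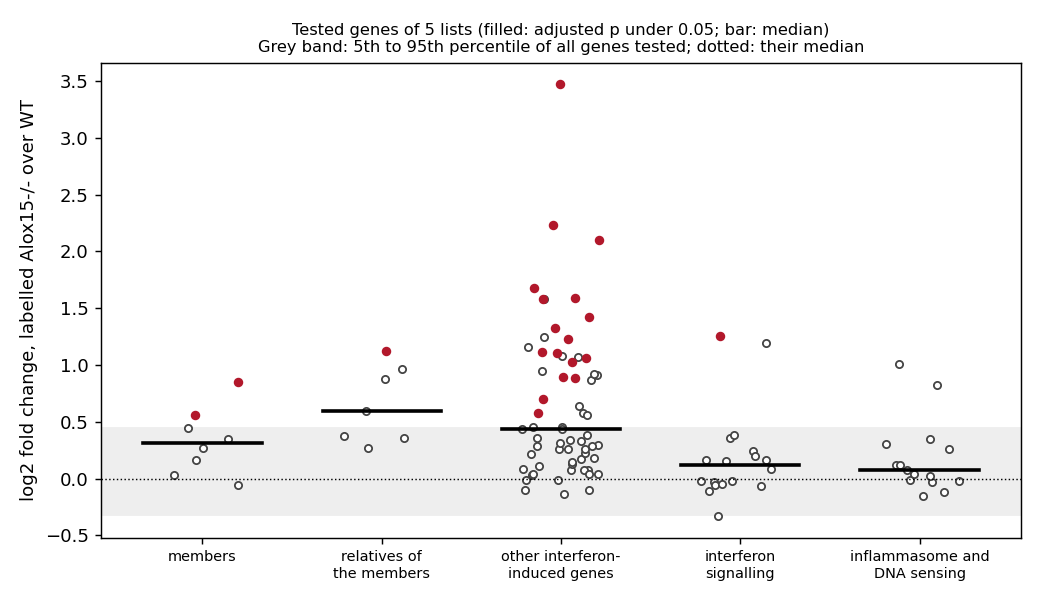
Log2 fold change (vertical axis, labelled Alox15-/- over WT) of each tested gene of 5 lists, filled red where the adjusted p was under 0.05, with the list's median as a bar and the 5th to 95th percentile of all 12700 tested genes as a grey band. The medians are 0.31 for the members, 0.59 for their relatives, 0.44 for other interferon-induced genes, 0.12 for interferon signalling and 0.08 for inflammasome and DNA-sensing genes.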

How the data were processed

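Gene counts came from MACE-seq, which sequences tags from the 3′ ends of transcripts, of 8 Treg libraries on day 2 of differentiation. Per the labels, reads were cleaned and trimmed, and the submitters' processing notes name Bowtie, edgeR and GRCm38. The labels also name a small RNA kit. The deposited values are raw counts, 1 per gene symbol and library, with no scaling, and the authors' counting tool, annotation, strand setting and treatment of duplicate reads are not given in the sources used here. Without a stated strand setting, reads of genes on opposite strands may not be told apart. The table also holds columns of the authors' own comparison (fold changes and p-values), which were not used. It lists 28239 symbols, 2 of them repeated and kept as listed.

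The 12700 genes that reached 2 CPM in 4 or more libraries entered a model with the group alone, fitted by edgeR 4.0.16 in R 4.3.3 (TMM scaling, quasi-likelihood F-test, two-sided, Benjamini-Hochberg adjustment over all genes tested, threshold 0.05). Standard errors are the log2 fold change divided by the square root of F. Library totals were between 3723151 and 9538962 counts, and the common dispersion was 0.021. No 2 libraries of a group differed by as little as sampling noise. The edgeR, limma-voom and DESeq2 fits were tested on simulated counts, without the replicate block, and the other steps were not. Alternatives were 3 scalings, 3 filters, a robust fit, a likelihood-ratio test, DESeq2 1.42.0, limma-voom (limma 3.58.1), a replicate block and leaving out libraries.

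The members and the gene lists were chosen with earlier results of these data known. Named genes were all members, Alox15, the called genes of each list (the 3 largest and 3 smallest where over 6) or else the 2 with the smallest p, the 3 genes most like each called member (0.5 counts added before the log2) and the tested genes within 1 Mb of the Ifi200 cluster. Relatives and interferon signalling genes at an unadjusted p under 0.05 and the summed genes were added after the values were seen. Positions are from GENCODE's annotation of GRCm38, whose symbols matched 12316 of the tested genes, and promoters from RefSeq's table of GRCm38.p6. Transcript ends were compared with blastn 2.17.0.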

Additional observations from a re-analysis of the deposited data

How the results depend on the processing

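The number of members called was 2 in each of the 11 alternatives that used all 8 libraries, between 1 and 2 with 1 library left out, and 0 without Alox15-/- replicates 2 and 3, an alternative chosen after seeing the data. That alternative called 60 genes in all and 5 other interferon-induced genes. Of all genes, 158 were called in the main analysis, 388 with no filter on low counts (298 higher and 90 lower), 100 with at least 10 counts in every library, and between 86 and 173 with 1 library left out. Of the other interferon-induced genes, 17 were called in the main analysis, 27 with no filter and between 8 and 18 with 1 library left out. With no filter 76.8% of the calls were higher, against 84.2% in the main analysis. The log2 ratio of the summed Ifi200 genes was between 0.27 and 0.54 with 1 library left out. The direction of Aim2 turned with the replicate block (-0.0014) and in 3 fits with a library left out, where the 8 values ran from -0.090 to 0.20. That of Ifi44 turned in 3 fits with a library left out, between -0.23 and 0.15, and with at least 10 counts in every library Ifi44 gave no value. The other tested members kept their direction in every alternative run. The cause of these changes was not tested. Ifi204 rests on 0 to 3 reads per library, which limits any statement on it.

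Libraries of both groups carry the numbers 1 to 4. Their deviations from the group means correlated at 0.07, 0.15, -0.17 and -0.02, and 1 of the 4 libraries labelled Alox15-/- correlated best with its own number, so the numbers were not taken as pairs. With the replicate block, 146 genes, 2 members and 16 other interferon-induced genes were called.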
